A study of Mus musculus with 6 samples.

Results

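The genes described here are those of the mitochondrial carrier family (SLC25), the pyruvate carrier, the uncoupling proteins, the VDAC channels and the protein import machinery, measured in cystic kidney tissue of mice lacking Fh1. Members were chosen by symbol in the array's annotation, from probe sets assigned to exactly 1 gene: symbols starting with Slc25a, Timm, Tomm, Mtch, Vdac or Mtx and a digit, and Mpc1, Mpc2, Ucp1, Ucp2 and Ucp3. The rule found 79 of 18193 genes: 47 carriers, 28 import genes, 3 VDAC channels and Timmdc1, which carries an import symbol but is an assembly factor of respiratory complex I. Mpc2, Slc25a21, Slc25a43, Tomm5, Tomm6 and Ucp2 had no probe set assigned to them alone and were not analysed here.

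The tissue was dissected renal epithelium on 6 Affymetrix arrays, 1 per sample. The knockout group holds 3 arrays of cystic epithelium from Fh1 knockout mice, and the control group holds 3 arrays of epithelium from disease-free wild-type littermates of matched sex. The labels name no strain, age or driver of the deletion, and do not say whether each array stands for a separate animal, so the p-values rest on the spread among these 6 samples, which may be technical. Fh1 encodes fumarate hydratase of the tricarboxylic acid (TCA) cycle. Values are log2 expression values from RMA (robust multi-array average), a method that corrects background and normalises between arrays. Each gene is read by its probe set with the highest mean, and a difference is the knockout mean minus the wild-type mean. Members were called higher or lower at an adjusted p under 0.05 from limma, adjusted over all 18193 genes.

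Mitochondria are enclosed by an outer and an inner membrane. VDAC channels let small metabolites through the outer membrane, and carriers of the SLC25 family then exchange nucleotides, phosphate, keto acids, amino acids and cofactors across the inner one. Nearly all mitochondrial proteins, the carriers included, are made in the cytosol and enter through the TOM complex of the outer membrane, from which the TIM23 complex takes proteins with a presequence and the TIM22 complex inserts carriers, helped by small TIM chaperones. Proximal tubule cells are rich in mitochondria and depend on this exchange for reabsorption, glucose synthesis and ammonia production.

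Fh1 itself read 11.54, 11.60 and 11.61 in knockout arrays, against 12.41, 12.34 and 12.22 in wild-type arrays. The knockout arrays all lay below the wild-type arrays (log2 difference -0.74, SE 0.08, adjusted p = 0.000396), the direction that the labels give, although whether this probe set lies in the deleted part is not known here. Markers of other cell types moved with the groups. Of 14 proximal tubule markers 12 were lower, with a mean log2 level over the list of 11.18 to 11.42 in knockout arrays and 12.75 to 13.00 in wild-type arrays, and all 8 measured markers of the thick limb and distal tubule were lower (10.16 to 10.73 in knockout arrays and 12.10 to 12.20 in wild-type arrays). Of 14 immune markers 12 were higher (9.12 to 9.52 in knockout arrays and 7.67 to 7.91 in wild-type arrays), as were 9 of 10 fibroblast and matrix markers (9.81 to 10.62 in knockout arrays and 8.22 to 8.49 in wild-type arrays). Erythrocyte markers were lower for 4 of 5 measured genes (5.98 to 6.10 in knockout arrays and 6.67 to 6.77 in wild-type arrays), striated muscle markers for 3 of 8 (4.76 to 4.79 in knockout arrays and 4.91 to 5.01 in wild-type arrays), and of 9 measured adipocyte markers 1 was lower and 1 higher. Beside these counts, 27.7% of all genes were lower and 21.6% higher. RMA gives no detection call, so no marker can be called absent. All results below are from the dissected tissue as a whole. In it, fewer cells of a type and less RNA per cell cannot be told apart. The part of these marker shifts in the results was not tested.

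In knockout tissue most metabolite carriers were lower, while most import genes were not called lower. Of the 79 members, 42 were lower and 4 higher, where 27.7% of all genes were lower and 21.6% higher (49.2% called in all). Among the 47 carriers 30 were lower and 2 higher, which is 63.8% and 4.26%. Among the 28 import genes 11 were lower and 2 higher, which is 39.3% and 7.14%. The median log2 difference was -0.36 for carriers, -0.13 for import genes and -0.11 for all genes. Most import genes are bright, and genes at or above the median signal had a median of 0.05, against -0.12 for the 26 import genes and -0.44 for the 34 carriers at that brightness. The difference between the 2 classes is a description of these genes, without a test, since genes are not replicates.

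The contrast was present in each knockout array. Set against each gene's wild-type mean, the median carrier stood at -0.46, -0.39 and -0.35 in knockout arrays 1, 2 and 3, against -0.02, 0.00 and 0.03 in wild-type arrays. The median import gene stood at -0.12, -0.15 and -0.11 in knockout arrays, against 0.02, -0.01 and 0.01 in wild-type arrays. Wild-type values are held near 0 by this measure, since each gene is set against the mean of those same arrays. Both classes thus lay below their wild-type level in all 3 knockout arrays, and the carriers lay lower than the import genes in each of them. The median of all genes stood at -0.11, -0.08 and -0.10 in the knockout arrays, beside which the import genes' medians differed by 0.07 or less. Groups did not overlap for 35 carriers, 33 of them lower, and for 16 import genes, 14 of them lower, where 62.9% of all genes did not overlap (37.1% with the knockout lower).

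The contrast was also present among bright genes. Carriers at or above the median signal of all genes were lower in 25 of 34 cases (73.5%) and import genes in 9 of 26 (34.6%), where 24.8% of genes at that brightness were lower and 31.4% higher. Higher calls were 1 of the 34 carriers and 2 of the 26 import genes. The count of lower import genes depended on single arrays: 5 were lower without knockout 1 or without knockout 3, and 7 without knockout 2, wild-type 2 or wild-type 3. Without knockout 1 these 5 are 17.9% of import genes, beside 17.4% of all genes lower in the same fit, and without knockout 3 they are beside 18.0%, so the import share was near that of all genes there. The 7 are 25%, beside 20.3%, 26.4% and 24.3% of all genes without knockout 2, wild-type 2 and wild-type 3. Lower carriers numbered 23 to 31 (48.9% to 66.0%) when any 1 array was left out, where 17.4% to 26.4% of all genes were lower. Of the 30 lower carriers 20 kept the call in all 6 such fits, and of the 11 lower import genes 5 did. How many of all lower genes kept theirs was not counted, so these 2 counts have no background share. Members higher in knockout numbered 2 without knockout 1 (2.53%), where 17.1% of all genes were higher.

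**Figure D1:**
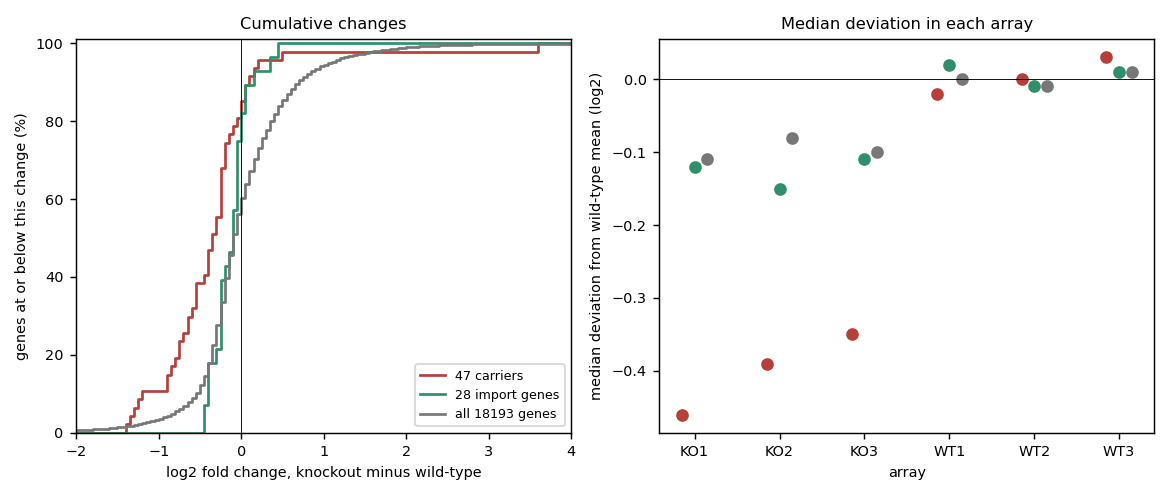
Left, cumulative share of genes (%) at or below each log2 difference (knockout minus wild-type) for 47 carriers, 28 import genes and all 18193 genes; right, median deviation from each gene's wild-type mean (log2) in the 3 knockout (KO) and 3 wild-type (WT) arrays, in the same colours. Carriers stand at -0.46 to -0.35 in knockout arrays, import genes at -0.15 to -0.11 and all genes, dim ones included, at -0.11 to -0.08.

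With each gene read by its brightest probe set, changes of 2-fold or more were found among carriers alone. A dimmer probe set of the import gene Timm9 gave a log2 difference of 1.07. With the mean of all probe sets, Slc25a25 and Slc25a42 gave -0.73 and -0.88, short of 2-fold. Of the 47 carriers 5 were at least 2-fold lower and 1 at least 2-fold higher, and no import gene or VDAC channel passed 2-fold. Over all genes, 3.39% were at least 2-fold lower and 5.44% at least 2-fold higher. Import genes ranged from -0.48 to 0.43 on the log2 scale, against -1.44 to 3.59 for carriers.

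**Figure D2:**
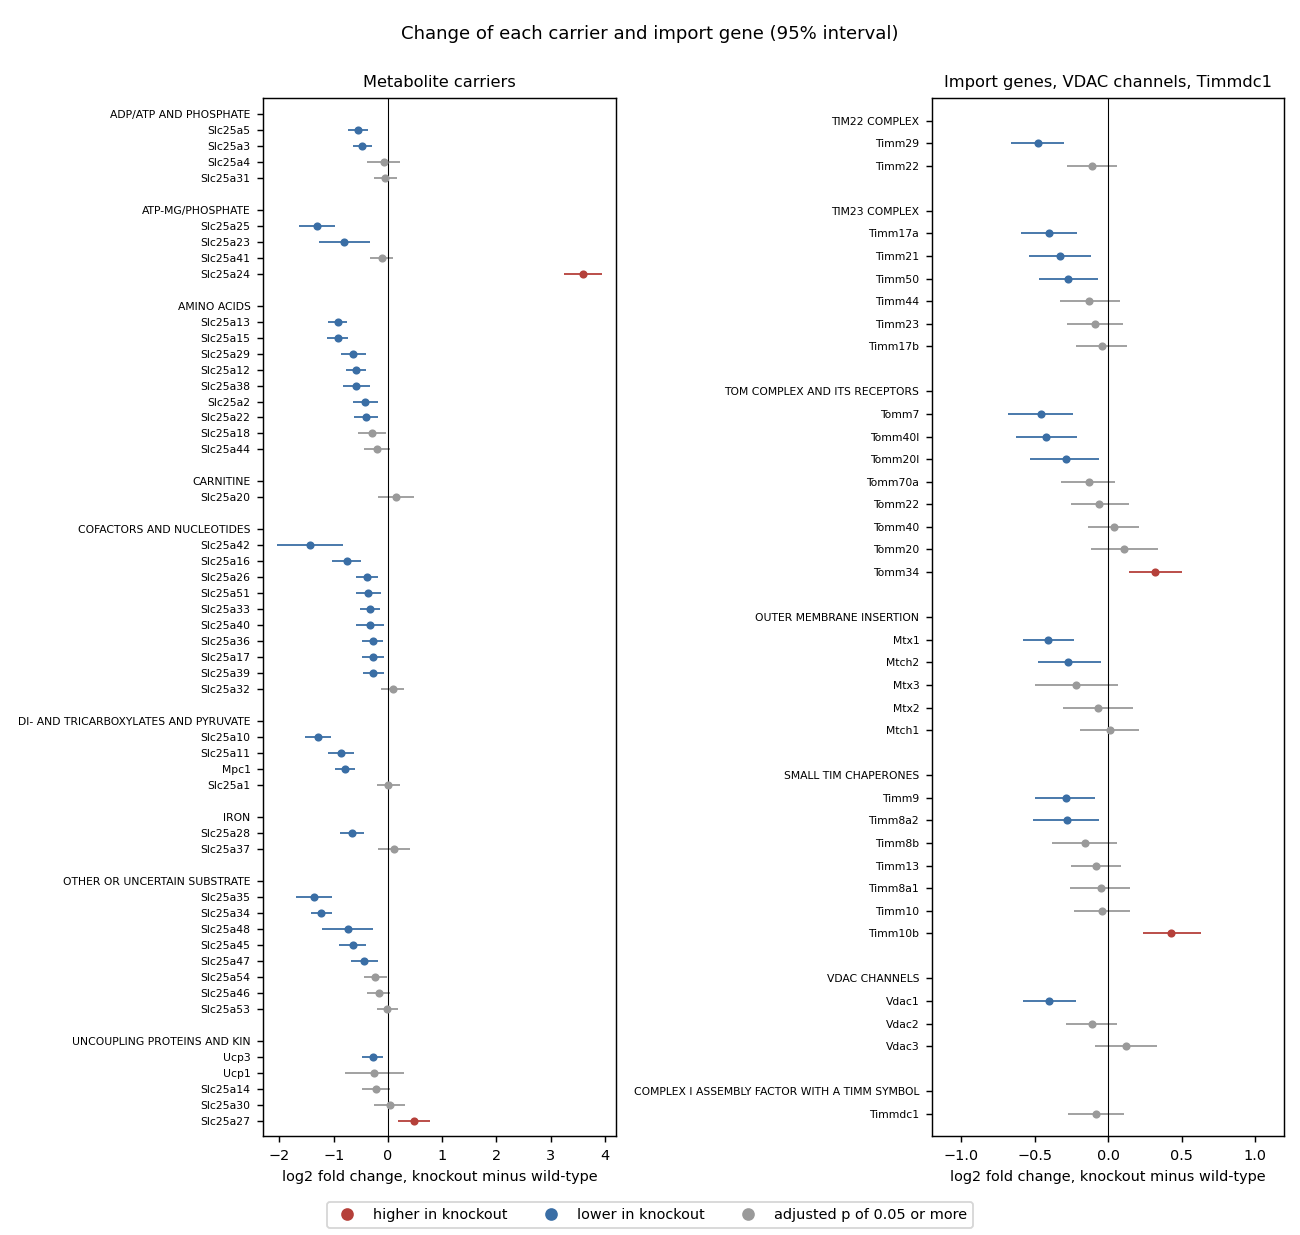
Log2 difference of every member (knockout minus wild-type, with its 95% interval from limma), grouped by role, carriers on the left and import genes, VDAC channels and Timmdc1 on the right, on different scales. Slc25a24 stands alone at 3.59, most other carriers lie below 0, and import genes lie between -0.48 and 0.43.

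The one large increase was in Slc25a24, the calcium-activated ATP-Mg/phosphate carrier that sets the adenine nucleotide content of the matrix. It read 10.74, 10.72 and 10.56 in knockout arrays, against 7.33, 7.16 and 6.75 in wild-type arrays. Every knockout array lay far above every wild-type array, a 12.1-fold difference (log2 difference 3.59, SE 0.15, adjusted p = 1.12e-05), and Slc25a24 ranked 25 among 18193 genes by size of change. A further probe set of the gene gave a log2 difference of 3.24 (adjusted p = 3.16e-06), and leaving out any 1 array gave 3.43 to 3.72.

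Its paralogs moved the other way or did not pass. Slc25a25, of the same calcium-dependent group, read 7.97, 7.74 and 8.04 in knockout arrays, against 9.41, 9.32 and 8.93 in wild-type arrays, 2.47-fold lower with no overlap (log2 difference -1.30, SE 0.14, adjusted p = 0.000368). Its other, dimmer probe sets were lower by less (-0.34 and -0.55), and the mean of all 3 gave -0.73, short of 2-fold. Slc25a23 was 1.75-fold lower (log2 difference -0.81, SE 0.20, adjusted p = 0.0144), a call that ended without knockout 2 (adjusted p = 0.0533), and Slc25a41, the remaining member, had a log2 difference of -0.11 (adjusted p = 0.317). Immune, matrix and tubule markers moved in the same arrays, as given above, and their part in this opposite movement was not tested.

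Carriers of di- and tricarboxylates fell, except the citrate carrier. Slc25a10, the dicarboxylate carrier that exchanges malate or succinate for phosphate, read 9.98, 9.84 and 10.09 in knockout arrays, against 11.13, 11.27 and 11.38 in wild-type arrays. It was 2.45-fold lower with no overlap (log2 difference -1.29, SE 0.10, adjusted p = 8.98e-05), and its other probe set gave -1.51. Slc25a11, the oxoglutarate/malate carrier, read 10.12, 10.08 and 10.18 in knockout arrays, against 10.88, 10.92 and 11.18 in wild-type arrays, and was 1.83-fold lower (log2 difference -0.87, SE 0.10, adjusted p = 0.000469). Both carriers move TCA cycle intermediates, and both had all knockout values below all wild-type values. Slc25a1, which exports citrate for lipid synthesis, read 9.95, 9.88 and 9.94 in knockout arrays, against 9.80, 9.85 and 10.07 in wild-type arrays. Its groups overlapped, with a log2 difference of 0.01 (95% interval -0.21 to 0.23). Mpc1, a subunit of the carrier that brings pyruvate into the matrix, read 11.87, 11.85 and 11.95 in knockout arrays, against 12.75, 12.64 and 12.66 in wild-type arrays, 1.74-fold lower with no overlap (log2 difference -0.80, SE 0.08, adjusted p = 0.000220).

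Amino acid carriers fell as well: 7 of 9 were lower, none was higher, and the median difference was -0.58. These 7 are 77.8%, beside 27.7% of all genes lower. Slc25a13 (citrin), an aspartate/glutamate carrier, read 9.89, 9.93 and 9.93 in knockout arrays, against 10.81, 10.80 and 10.92 in wild-type arrays, 1.9-fold lower with no overlap (log2 difference -0.93, SE 0.08, adjusted p = 0.000105). Its paralog Slc25a12 (aralar) read 9.65, 9.73 and 9.79 in knockout arrays, against 10.27, 10.33 and 10.35 in wild-type arrays, 1.51-fold lower and also without overlap (log2 difference -0.59, SE 0.08, adjusted p = 0.000913). Of the dimmer probe sets of Slc25a12, 1 was lower (-0.63) and 1 did not pass (-0.08), and the mean of all 3 gave -0.43 (adjusted p = 0.00487). Slc25a15, the ornithine carrier of the urea cycle, was 1.9-fold lower (log2 difference -0.92, SE 0.08, adjusted p = 0.000149), and its second probe set gave -1.50. Slc25a29, a carrier of basic amino acids, was 1.56-fold lower, Slc25a38, the glycine carrier used in haem synthesis, 1.5-fold, the glutamate carrier Slc25a22 1.33-fold and the ornithine carrier Slc25a2 1.34-fold, with adjusted p of 0.00182 to 0.0106. Slc25a2 lies near the floor of the array, at 4.10 in wild-type tissue. Slc25a18 and Slc25a44, carriers of glutamate and of branched-chain amino acids, had log2 differences of -0.29 and -0.20 and did not pass (adjusted p = 0.0553 and 0.142). The other 2 probe sets of Slc25a44, one of them about as bright, were lower (-0.55 and -0.29, adjusted p = 0.00361 and 0.0248 over all probe sets), and the mean of all 3 passed (-0.35, adjusted p = 0.00428). With the brightest probe set both genes passed when 1 array was left out: Slc25a18 without knockout 2 (-0.38, adjusted p = 0.0343) and Slc25a44 without wild-type 3 (-0.30, adjusted p = 0.0239).

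Slc25a11, Slc25a12 and Slc25a13 work with cytosolic and mitochondrial aminotransferases and malate dehydrogenases as the malate-aspartate shuttle, which moves reducing equivalents into the matrix. All 7 shuttle genes were lower, a set put together after their values were seen. Of all genes 27.7% were lower, and the carriers of the set are also counted above. The cytosolic enzymes Got1 and Mdh1 were 1.81-fold and 1.71-fold lower (adjusted p = 0.000555 and 0.000237), and the mitochondrial Got2 and Mdh2 were 1.41-fold and 1.19-fold lower (adjusted p = 0.00978 and 0.0356). The call of Mdh2 ended without knockout 1, 2 or 3 or wild-type 1 or 2, with adjusted p of up to 0.110. It also ended with quantile normalisation and with the replicate number as a block (adjusted p = 0.134 and 0.0934). With the mean of all probe sets Mdh1 gave -0.37. Enzymes that work next to the carriers were listed for comparison, and of 17 measured 12 were lower and 2 higher. That is 70.6% and 11.8%, beside 27.7% and 21.6% of all genes, and the shuttle enzymes are among them. Pcx, pyruvate carboxylase, was 3.21-fold lower, Crat, carnitine acetyltransferase, 1.95-fold and Cpt2, carnitine palmitoyltransferase 2, 1.93-fold. Pck2, mitochondrial phosphoenolpyruvate carboxykinase, was 1.88-fold higher and Ckmt1, mitochondrial creatine kinase, 1.41-fold higher. Proximal tubule markers, at 11.18 to 11.42 in knockout arrays and 12.75 to 13.00 in wild-type arrays, fell in the same arrays, and their part was not tested.

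**Figure D3:**
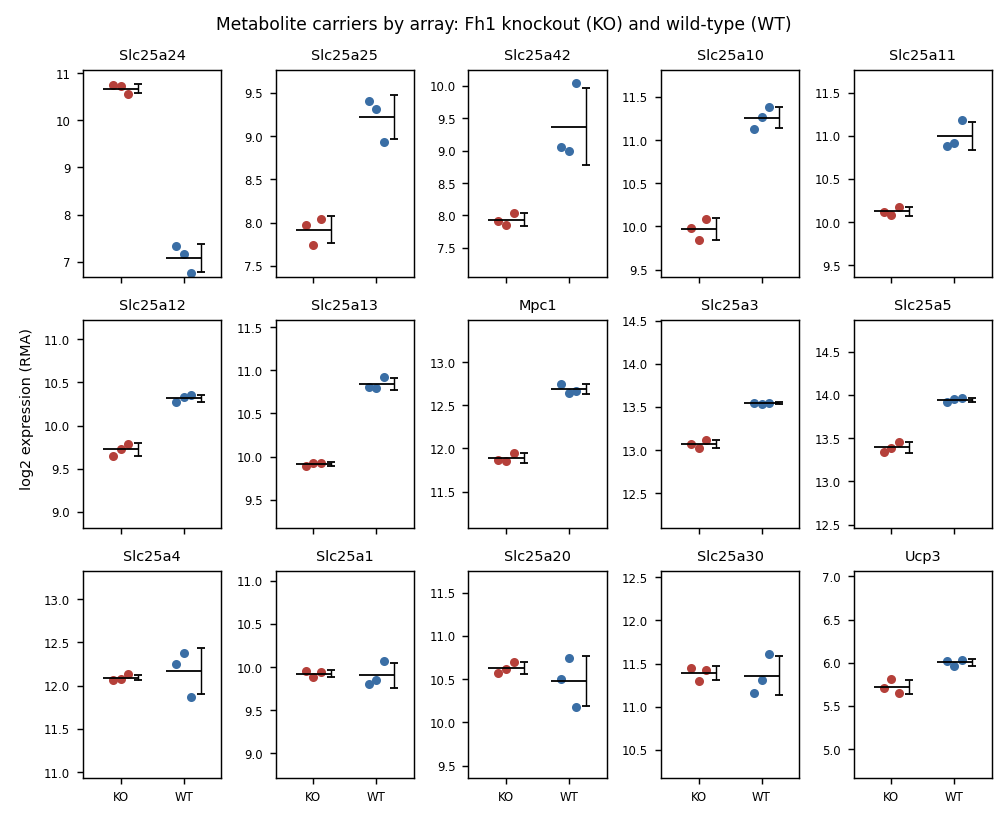
Log2 expression (RMA) of 15 carriers in the 3 knockout (KO) and 3 wild-type (WT) arrays, with the group mean as a bar and SD as whiskers; each panel has its own range. Slc25a24 lies at 10.56 to 10.74 in knockout against 6.75 to 7.33 in wild-type arrays, while Slc25a4, Slc25a1, Slc25a20 and Slc25a30 overlap between the groups.

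Among carriers of energy-linked nucleotides and phosphate, 2 of 4 were lower (50%, beside 27.7% of all genes). Slc25a5 (ANT2), the ADP/ATP carrier of proliferating and epithelial cells, read 13.34, 13.38 and 13.46 in knockout arrays, against 13.92, 13.95 and 13.96 in wild-type arrays, 1.46-fold lower with no overlap (log2 difference -0.55, SE 0.08, adjusted p = 0.00103), and all 8 of its probe sets were lower. Slc25a4 (ANT1) read 12.07, 12.08 and 12.13 in knockout arrays, against 12.25, 12.38 and 11.87 in wild-type arrays. Wild-type 3 lay below all knockout arrays and the other wild-type arrays above them, so the groups overlapped (log2 difference -0.07, SE 0.13, adjusted p = 0.647). Its next 2 probe sets gave -0.26 and -0.29 and did not pass either (adjusted p = 0.0746 and 0.0539 over all probe sets), and the mean of all 4 gave -0.19. Slc25a3, the phosphate carrier that feeds ATP synthase, read 13.07, 13.03 and 13.12 in knockout arrays, against 13.55, 13.53 and 13.55 in wild-type arrays, 1.38-fold lower with no overlap (log2 difference -0.47, SE 0.07, adjusted p = 0.00194), and the mean of both its probe sets gave -0.25. Slc25a31, the germ cell isoform, stood near the floor at 3.21 in knockout and 3.26 in wild-type tissue and did not pass.

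Carriers of cofactors and nucleotides were lower in 9 of 10 cases (90%, beside 27.7% of all genes), mostly by less than 2-fold. Slc25a42, which brings coenzyme A into the matrix, read 7.92, 7.85 and 8.04 in knockout arrays, against 9.06, 9.0 and 10.05 in wild-type arrays. It was 2.71-fold lower with no overlap (log2 difference -1.44, SE 0.26, adjusted p = 0.00346), wild-type 3 stood about 1 log2 unit above the other wild-type arrays, and without wild-type 3 the log2 difference was -1.10. Its second, dimmer probe set gave -0.33 and did not pass, and the mean of both gave -0.88. Slc25a16, also linked to coenzyme A, was 1.70-fold lower and Slc25a26, the S-adenosylmethionine carrier, 1.31-fold (adjusted p = 0.00170 and 0.00854). The NAD carrier Slc25a51 (-0.36), the pyrimidine nucleotide carriers Slc25a33 and Slc25a36 (-0.33 and -0.28), the glutathione carriers Slc25a39 and Slc25a40 (-0.27 and -0.33) and the peroxisomal carrier Slc25a17 (-0.27) were each lower by 1.21-fold to 1.28-fold. Slc25a36 was lower by more in its other probe sets (-0.70 and -0.91), and the mean of all 3 gave -0.63 (adjusted p = 0.000713), while the mean of the Slc25a39 probe sets gave -0.42. With the brightest probe set these 6 calls ended when 1 array was left out: Slc25a33 without knockout 1, Slc25a36 without knockout 2 or 3 or wild-type 2, Slc25a51 without knockout 1, 2 or 3, Slc25a17 without knockout 1 or 3 or wild-type 1 or 3, Slc25a39 without any array but wild-type 2 and Slc25a40 without any array but wild-type 3, with adjusted p of 0.0519 to 0.108. Slc25a39 also lost the call with quantile normalisation (-0.14, adjusted p = 0.167). Slc25a32, of folate transport, did not pass (0.09).

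Of the 2 iron carriers 1 was lower (50%, beside 27.7% of all genes). Slc25a28 (mitoferrin 2), the carrier of non-erythroid cells, was 1.59-fold lower (log2 difference -0.67, SE 0.09, adjusted p = 0.00107), whereas Slc25a37 (mitoferrin 1), the erythroid carrier, did not pass (0.12, adjusted p = 0.465). The difference between them was not tested.

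The carnitine carrier did not pass, and of 5 uncoupling proteins and their kin 1 was higher and 1 lower. That is 20% each, beside 21.6% of all genes higher and 27.7% lower. Slc25a20, the carnitine/acylcarnitine carrier of fatty acid oxidation, read 10.57, 10.62 and 10.70 in knockout arrays, against 10.50, 10.75 and 10.18 in wild-type arrays. Groups overlapped and the gene did not pass (log2 difference 0.15, SE 0.14, adjusted p = 0.388), while its dimmer probe set was lower (-0.45, adjusted p = 0.00931 over all probe sets), so the probe sets disagree. Slc25a30, known as kidney mitochondrial carrier protein, read 11.45, 11.30 and 11.42 in knockout arrays, against 11.16, 11.31 and 11.61 in wild-type arrays, with overlap and a log2 difference of 0.03. Ucp3 read 5.71, 5.81 and 5.65 in knockout arrays, against 6.02, 5.96 and 6.03 in wild-type arrays, all knockout values below all wild-type values, and was 1.21-fold lower (log2 difference -0.28, SE 0.08, adjusted p = 0.0238). Its signal lay below the median of all genes, and the call ended without knockout 1, knockout 3 or wild-type 1 (adjusted p = 0.0533 to 0.0888). Ucp1, the heat-producing uncoupling protein of brown fat, read 4.53, 4.72 and 5.41 in knockout arrays, against 5.45, 4.92 and 5.06 in wild-type arrays, near the lower quartile of the arrays (4.62 to 4.77), and did not pass. Adipocyte markers varied between arrays within groups, with mean log2 levels over 9 measured genes of 5.54, 5.40 and 6.95 in knockout arrays 1, 2 and 3, against 6.05, 7.15 and 5.95 in wild-type arrays. With knockout 3 and wild-type 2, the arrays highest for these markers in their groups, both left out, Ucp1 had a log2 difference of -0.63 (adjusted p = 0.0273), an alternative chosen after seeing the data. Slc25a14 did not pass (-0.22, adjusted p = 0.129), but did without wild-type 3 (-0.31, adjusted p = 0.0387).

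Slc25a27 was the other carrier called higher. Its brightest probe set read 6.93, 6.57 and 6.69 in knockout arrays, against 6.44, 6.23 and 6.09 in wild-type arrays, 1.39-fold higher with no overlap (log2 difference 0.48, SE 0.13, adjusted p = 0.0187). Another 2 of its 4 probe sets were called lower (-0.45 and -0.35), so its direction is uncertain, and the call ended without knockout 1 (log2 difference 0.37, adjusted p = 0.0650). All 4 probe sets lie below the median of the gene means (7.37).

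Carriers of other or uncertain substrates were lower in 5 of 8 cases (62.5%, beside 27.7% of all genes). Slc25a35 read 6.05, 6.25 and 6.44 in knockout arrays, against 7.44, 7.85 and 7.52 in wild-type arrays, 2.56-fold lower with no overlap (log2 difference -1.36, SE 0.14, adjusted p = 0.000276). Slc25a34, its close relative, read 7.58, 7.44 and 7.60 in knockout arrays, against 8.70, 8.80 and 8.79 in wild-type arrays, 2.34-fold lower and also without overlap (log2 difference -1.23, SE 0.08, adjusted p = 5.06e-05). Both thus fell by more than 2-fold. Slc25a48 was 1.67-fold, Slc25a45 1.57-fold and Slc25a47 1.36-fold lower (adjusted p = 0.0184, 0.00220 and 0.0131). Slc25a48 lost the call without knockout 2 or 3 (adjusted p = 0.0598 and 0.0517) and Slc25a47 without knockout 1 (0.0535). Slc25a54, Slc25a46 and Slc25a53 had log2 differences of -0.24, -0.17 and -0.01 and did not pass, although Slc25a46, an outer membrane protein of mitochondrial shape, passed without wild-type 3 (-0.25, adjusted p = 0.0333).

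Of the 3 VDAC channels 1 was lower (33.3%, near the 27.7% of all genes). Vdac1, the main outer membrane channel for metabolites, read 13.27, 13.22 and 13.27 in knockout arrays, against 13.61, 13.72 and 13.63 in wild-type arrays, 1.32-fold lower with no overlap (log2 difference -0.40, SE 0.08, adjusted p = 0.00444), and all 5 of its probe sets were lower. Vdac2 read 12.19, 12.26 and 12.28 in knockout arrays, against 12.35, 12.39 and 12.32 in wild-type arrays, with all knockout values below all wild-type values, and did not pass (log2 difference -0.11, SE 0.08, adjusted p = 0.240). Vdac3 read 11.91, 11.92 and 11.83 in knockout arrays, against 11.84, 11.83 and 11.62 in wild-type arrays, and its groups overlapped (log2 difference 0.12, SE 0.09, adjusted p = 0.277). Vdac1 alone of the 3 was called.

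In the TOM complex, the entry gate for imported proteins, the receptors and the pore did not pass. Tomm20, a presequence receptor, read 12.91, 12.92 and 12.78 in knockout arrays, against 12.93, 12.70 and 12.65 in wild-type arrays, and its groups overlapped (log2 difference 0.11, SE 0.10, adjusted p = 0.368). Tomm22, the central receptor, read 10.16, 10.22 and 10.19 in knockout arrays, against 10.30, 10.13 and 10.30 in wild-type arrays, also with overlap (log2 difference -0.06, SE 0.08, adjusted p = 0.578). Tomm40, the pore, read 9.46, 9.37 and 9.41 in knockout arrays, against 9.35, 9.38 and 9.42 in wild-type arrays, a log2 difference of 0.04 (95% interval -0.14 to 0.21). The 95% intervals of these 3 genes lay between -0.25 and 0.34. Tomm70a, the receptor for carriers, read 10.25, 10.23 and 10.29 in knockout arrays, against 10.49, 10.34 and 10.34 in wild-type arrays, with all knockout values below all wild-type values but an adjusted p of 0.199. Of 6 Tomm20 probe sets, the 2 dimmest were lower (-0.42 and -0.41) and the others did not pass.

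Of the remaining genes with a Tomm symbol 3 were lower and 1 higher. Over all measured Tomm genes that is 37.5% and 12.5%, beside 27.7% and 21.6% of all genes. Tomm7, a small subunit of the complex, read 9.99, 10.14 and 9.97 in knockout arrays, against 10.57, 10.55 and 10.35 in wild-type arrays, 1.37-fold lower with no overlap (log2 difference -0.46, SE 0.09, adjusted p = 0.00639). Tomm40l, a pore paralog, read 8.08, 7.91 and 7.95 in knockout arrays, against 8.30, 8.40 and 8.51 in wild-type arrays, 1.34-fold lower (log2 difference -0.42, SE 0.09, adjusted p = 0.00792). Tomm34, a cytosolic co-chaperone of import, read 9.5, 9.43 and 9.42 in knockout arrays, against 9.06, 9.15 and 9.18 in wild-type arrays, 1.25-fold higher with no overlap (log2 difference 0.32, SE 0.08, adjusted p = 0.0123), a call that ended without knockout 1 (adjusted p = 0.0543). The Tomm20 paralog Tomm20l, whose signal lay below the median of all genes, was called lower (-0.29, adjusted p = 0.0429), a call lost without knockout 1, 2 or 3 or wild-type 2 or 3 (adjusted p up to 0.138). It was also lost with quantile normalisation (-0.18, adjusted p = 0.176) and with array weights (adjusted p = 0.0678).

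In the TIM23 complex 3 of 6 genes were lower (50%, beside 27.7% of all genes). The channel-forming Timm23 read 11.75, 11.82 and 11.79 in knockout arrays, against 11.96, 11.88 and 11.79 in wild-type arrays, with an overlap at the lowest wild-type array, and did not pass (log2 difference -0.09, SE 0.08, adjusted p = 0.364). Its partner Timm17a read 10.45, 10.58 and 10.57 in knockout arrays, against 10.94, 10.87 and 10.99 in wild-type arrays, 1.32-fold lower with no overlap (log2 difference -0.40, SE 0.08, adjusted p = 0.00581), whereas the paralog Timm17b did not pass (-0.04, adjusted p = 0.645). Timm50, the receptor of the complex, read 8.85, 8.90 and 8.86 in knockout arrays, against 9.02, 9.18 and 9.23 in wild-type arrays, 1.21-fold lower with no overlap (log2 difference -0.27, SE 0.09, adjusted p = 0.0327), and lost the call without knockout 1, 2 or 3 or wild-type 2 or 3 (adjusted p = 0.0617 to 0.0980). Timm44, which anchors the import motor, read 10.34, 10.27 and 10.25 in knockout arrays, against 10.33, 10.37 and 10.54 in wild-type arrays, with overlap (log2 difference -0.13, SE 0.09, adjusted p = 0.254). Timm21 was 1.26-fold lower (adjusted p = 0.0206), a call lost without knockout 1, knockout 3 or wild-type 1 (adjusted p = 0.0547 to 0.0762).

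The TIM22 complex inserts the carriers themselves. Timm22, its channel, read 9.55, 9.53 and 9.51 in knockout arrays, against 9.65, 9.60 and 9.68 in wild-type arrays, all knockout values below all wild-type values, and did not pass (log2 difference -0.11, SE 0.07, adjusted p = 0.233); its dimmer probe set was lower (-0.53, adjusted p = 0.0199 over all probe sets). Timm29, an accessory subunit, read 9.80, 9.68 and 9.69 in knockout arrays, against 10.17, 10.18 and 10.25 in wild-type arrays, 1.39-fold lower with no overlap (log2 difference -0.48, SE 0.08, adjusted p = 0.00229). That is the lowest difference among import genes. The small TIM chaperones, which carry hydrophobic carriers across the intermembrane space, were mostly not called: Timm8b, Timm13, Timm8a1 and Timm10 had log2 differences of -0.16 to -0.04. Timm10b read 10.95, 10.98 and 10.90 in knockout arrays, against 10.60, 10.41 and 10.52 in wild-type arrays, 1.35-fold higher with no overlap (log2 difference 0.43, SE 0.08, adjusted p = 0.00466). Timm9 and Timm8a2 were called lower (-0.29 and -0.28), but lost the call in several fits without 1 array (knockout 1, knockout 3 and wild-type 3 for both, wild-type 1 also for Timm9, knockout 2 and wild-type 2 also for Timm8a2, with adjusted p up to 0.128). Timm8a2 lies near the floor of the array, at 3.23 in knockout and 3.51 in wild-type tissue. It also lost the call with quantile normalisation and with array weights (adjusted p = 0.0773 and 0.0544). The second Timm9 probe set was called higher (1.07, adjusted p = 0.00145 over all probe sets), so the direction of Timm9 is uncertain.

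Proteins of outer membrane insertion gave 2 lower of 5 (40%, beside 27.7% of all genes). Mtx1 (metaxin 1), a partner of the sorting and assembly machinery, read 10.64, 10.72 and 10.66 in knockout arrays, against 11.02, 11.11 and 11.10 in wild-type arrays, 1.33-fold lower with no overlap (log2 difference -0.41, SE 0.08, adjusted p = 0.00405). Mtx2 read 10.16, 10.24 and 10.20 in knockout arrays, against 10.38, 10.36 and 10.08 in wild-type arrays. Mtx3 read 7.86, 7.47 and 7.81 in knockout arrays, against 7.81, 8.05 and 7.93 in wild-type arrays. Both overlapped between groups and did not pass (adjusted p = 0.585 and 0.173). The other 2 probe sets of Mtx3 were lower (-0.52 and -0.48, adjusted p = 0.0256 and 0.0179 over all probe sets), and the mean of all 3 passed (-0.40, adjusted p = 0.0205). Mtch2, an insertase of the outer membrane, read 10.89, 11.02 and 11.04 in knockout arrays, against 11.38, 11.21 and 11.15 in wild-type arrays, 1.2-fold lower (log2 difference -0.27, SE 0.09, adjusted p = 0.0466). The call ended without knockout 1, 2 or 3 or wild-type 1 or 2 (adjusted p = 0.0639 to 0.156). In the limma fit over all probe sets the same probe set did not pass (adjusted p = 0.0518). The next 2 of its 7 probe sets by brightness gave -0.02 and -0.07 and did not pass either. A dim one, with a mean of 4.94, was called higher (0.75). Mtch1 read 10.32, 10.36 and 10.36 in knockout arrays, against 10.25, 10.29 and 10.47 in wild-type arrays, with overlap and a log2 difference of 0.01. Timmdc1 did not pass either (-0.08, adjusted p = 0.432).

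Other genes of the import route, listed for comparison, gave these counts: of 17 measured 7 were lower and none was higher (41.2% lower), with a median of -0.26. Of all genes 27.7% were lower and 21.6% higher, with a median of -0.11. All 17 lie at or above the median signal, where 24.8% of genes were lower and the median was 0.05. Pmpcb, the catalytic subunit of the presequence peptidase, read 11.10, 11.11 and 11.10 in knockout arrays, against 12.07, 12.04 and 12.03 in wild-type arrays, 1.92-fold lower (log2 difference -0.94, SE 0.07, adjusted p = 7.85e-05). Mipep, a peptidase that trims imported proteins further, was 1.51-fold lower and Oxa1l, an inner membrane insertase, 1.41-fold (adjusted p = 0.00171 and 0.0105). With the mean of all probe sets Mipep gave -0.35 (adjusted p = 0.0138), and Oxa1l gave -0.18 and lost the call (adjusted p = 0.109).

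**Figure D4:**
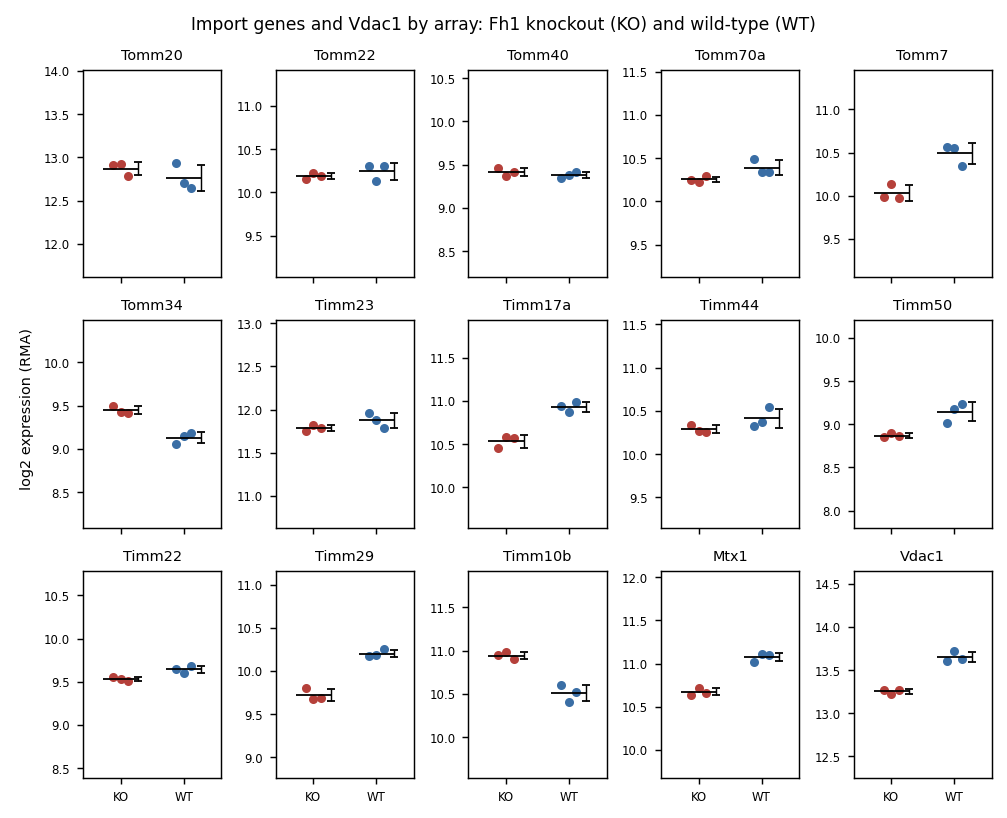
Log2 expression (RMA) of 14 import genes and Vdac1 in the 3 knockout (KO) and 3 wild-type (WT) arrays, with the group mean as a bar and SD as whiskers; each panel spans the same log2 range. Tomm20, Tomm22 and Tomm40 overlap between groups, while Timm10b lies at 10.90 to 10.98 in knockout against 10.41 to 10.60 in wild-type arrays and Timm29 at 9.68 to 9.80 in knockout against 10.17 to 10.25 in wild-type arrays.

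Several probe sets read 41 of the members. Of these 26 were called, 20 of these had another probe set called the same way, and 3 (Mtch2, Slc25a27 and Timm9) had one called the opposite way. Of the 15 not called, 7 had another probe set that was called: Mtx3, Slc25a20, Slc25a44, Slc25a46, Timm22 and Tomm20 lower and Slc25a32 higher. For 6 members the probe set read was of the type marked _x_at and for 7 of the type _s_at, which can share probes with related transcripts; Slc25a5, Slc25a39, Slc25a29, Tomm7, Timm17b and Vdac1 are the 6.

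Promoters of the import genes often held a short ETS-type motif, CCGGAAG, the core that GABP and other ETS factors recognise and that is known from nuclear genes of mitochondria. Windows of 300 bases, from 250 before to 50 after the start, were taken from RefSeq (GRCm38.p6), and 64 of 79 members had one. The motif stood on either strand of some window in 13 of 25 import genes (52.0%), 8 of 37 carriers (21.6%) and 15% of 14368 tested genes with a window. The GC-rich core of the NRF1 motif, searched likewise, was found in 3 import genes (12%), 2 carriers (5.41%) and 8.63% of all. The core of the antioxidant response element, TGACNNNGC, was found in 3 import genes (12%), 10 carriers (27.0%) and 16.1% of all. No CCGGAAG match in a member overlapped a match to either. A match is a description of letters and no evidence of binding.

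Among import genes called lower 4 of 8 with a window held CCGGAAG, and among those that did not pass 7 of 15 did, so the shares in both groups were similar. The carriers called lower held it in 5 of 26 cases (19.2%). The promoters of the 2 import genes below, whose expression did not pass, are set beside those of the carrier that rose most and of the dicarboxylate carrier. They are examples and do not stand for their classes. Tomm40, Tomm20, Timm44 and Timm22 did not pass either and held no match. Slc25a3, Slc25a25 and Mpc1 were called lower and held a match, as did Timm10b and Tomm34, the import genes called higher. Capitals mark CCGGAAG on either strand (CTTCCGG on the other), and each sequence is written 5′ to 3′ along the gene's strand. They lie at chr14:32201842-32202141 (minus strand) for Timm23, chr15:79670618-79670917 (plus strand) for Tomm22, chr3:109122899-109123198 (plus strand) for Slc25a24 and chr11:120491587-120491886 (plus strand) for Slc25a10.
Timm23: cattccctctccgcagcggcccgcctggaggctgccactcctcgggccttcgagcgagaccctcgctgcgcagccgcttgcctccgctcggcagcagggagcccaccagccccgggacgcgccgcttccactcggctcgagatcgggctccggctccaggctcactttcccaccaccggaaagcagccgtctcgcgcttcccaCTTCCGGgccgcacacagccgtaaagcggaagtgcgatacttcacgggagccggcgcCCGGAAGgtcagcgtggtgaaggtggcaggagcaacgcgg
Tomm22: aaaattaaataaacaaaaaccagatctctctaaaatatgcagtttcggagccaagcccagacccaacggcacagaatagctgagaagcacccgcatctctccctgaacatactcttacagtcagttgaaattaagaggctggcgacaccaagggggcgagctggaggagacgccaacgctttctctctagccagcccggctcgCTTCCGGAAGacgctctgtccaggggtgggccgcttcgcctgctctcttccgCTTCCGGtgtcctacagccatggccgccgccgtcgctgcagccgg
Slc25a24: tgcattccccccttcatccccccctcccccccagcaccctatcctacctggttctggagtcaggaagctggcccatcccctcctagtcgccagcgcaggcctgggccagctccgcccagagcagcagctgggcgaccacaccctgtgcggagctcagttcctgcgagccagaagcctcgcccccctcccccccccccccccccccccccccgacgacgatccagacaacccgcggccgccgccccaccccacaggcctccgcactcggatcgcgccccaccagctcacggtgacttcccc
Slc25a10: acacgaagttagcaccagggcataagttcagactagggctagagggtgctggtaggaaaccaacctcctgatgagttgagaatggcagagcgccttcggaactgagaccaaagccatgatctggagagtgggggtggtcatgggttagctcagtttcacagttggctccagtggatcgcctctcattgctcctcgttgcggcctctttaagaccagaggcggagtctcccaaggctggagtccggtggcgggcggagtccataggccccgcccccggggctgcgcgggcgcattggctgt
Timm23 held 2 matches and Tomm22 held 3, of which 2 overlap each other, the first in both starting 47 bases before the start. Neither carrier's window held one. Slc25a24 rose and Slc25a10 fell in knockout tissue.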

How the data were processed

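The authors deposited log2 expression values made with RMA, per the submitters' processing notes, for 45101 probe sets on 6 arrays. No source used here names the RMA software or its version. Of these probe sets, 34945 carry exactly 1 gene symbol in the platform annotation, and symbols were updated through RefSeq where possible. Each of 18193 genes was read by its probe set with the highest mean over all arrays, control probe sets being left out. The 2 groups were tested against each other with limma 3.58.1 (lmFit and eBayes) in R 4.3.3, with Benjamini-Hochberg adjustment over all genes and a threshold of 0.05. Values of further probe sets come from the same fit over all single-gene probe sets. The test was checked on simulated data. The number of arrays, 3 per group, limits the precision, and no depth applies.

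Members and lists were chosen with earlier results of these data known. Per-array values are printed for up to 5 called carriers and 5 called import genes per direction, by size of change, all Vdac, Mpc, Ucp, Mtch and Mtx members and a list of core carriers and import subunits, and up to 3 called genes of each partner list are named per direction, those that changed most. Lists of tubule, immune, matrix, adipocyte, erythrocyte and striated muscle markers were measured beside them. Alternatives covered the probe set rule, a filter on dim genes, the eBayes prior, normalisation, centring, array weights, a replicate block, the annotation's own symbols, the threshold and each array left out. No 2 arrays held identical values. Correlations between arrays were 0.995 to 0.997 among knockout, 0.988 to 0.992 among wild-type and 0.952 to 0.964 between the groups. The promoter motifs were searched in Python 3.11.15 on both strands.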

Additional observations from a re-analysis of the deposited data

How the results depend on the processing

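Carriers had the lower median in every alternative run. Left out 1 at a time, the arrays gave medians of -0.42 to -0.34 for carriers and -0.16 to -0.10 for import genes (difference -0.29 to -0.19). Counts in these fits were 2 to 4 members higher, 29 to 39 members lower and 1 to 2 carriers higher. For import genes they were 1 to 2 higher and 5 to 8 lower. Of all genes, 17.4% to 26.4% were lower and 17.1% to 21.2% higher in the same fits. Genes at or above the median signal gave -0.44 for carriers, a difference of -0.32 and 1 carrier higher, and the mean of all probe sets also left 1 carrier higher. Quantile normalisation gave an import median of -0.16 (all genes -0.08), and centring gave -0.44 for carriers and -0.21 for import genes (all genes -0.19). At an adjusted p of 0.01, 2 members were higher and 24 lower: 1 carrier higher and 18 lower (38.3%), 1 import gene higher and 5 lower (17.9%), where 13.0% of all genes were lower and 14.5% higher. With knockout 3 and wild-type 2 both left out, chosen after seeing the data, 2 members were higher and 25 lower, 1 carrier was higher, 1 import gene higher and 3 lower (10.7%, where 17.7% of all genes were lower), and the import median was -0.15. Fewer samples or genes entered the fits where arrays or dim genes were dropped, and causes of these shifts were not tested.

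With the replicate number as a block, 4 members were higher and 32 lower, and 25 carriers (53.2%) and 6 import genes (21.4%) were lower, where 21.6% of all genes were. Calls that ended there were those of Slc25a17, Slc25a36, Slc25a39, Slc25a40, Ucp3, Mtch2, Timm9, Timm8a2, Timm50 and Tomm20l (adjusted p = 0.0694 to 0.106). Same-numbered arrays correlated at -0.0986, -0.126 and -0.125 in their deviations from the group means, and differently numbered arrays at 0.00626 to 0.0925. Deviations within a group of 3 arrays sum to 0 and so depend on each other. These values therefore cannot settle whether the numbers pair the samples.

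Signs reversed for few genes. The mean of all probe sets gave 0.05 for Mtch2, -0.15 for Slc25a20, -0.05 for Slc25a27, -0.06 for Slc25a30, 0.06 for Slc25a53, 0.39 for Timm9 (adjusted p = 0.00937), -0.07 for Tomm20 and 0.03 for Tomm22. Quantile normalisation gave -0.02 for Mtch1, -0.04 for Slc25a1, 0.01 for Slc25a41 and -0.02 for Tomm40, and centring gave -0.07, -0.06 and -0.04 for Mtch1, Slc25a1 and Tomm40, and -0.04 for Slc25a30. Without 1 array, Mtch1 ranged from -0.03 to 0.08, Slc25a1 from -0.04 to 0.10, Slc25a30 from -0.06 to 0.16, Slc25a4 from -0.22 to 0.03, Slc25a31 from -0.10 to 0.01 and Slc25a53 from -0.07 to 0.03. Without both knockout 3 and wild-type 2, Mtch1 and Slc25a1 gave -0.02, Slc25a30 -0.01, Slc25a4 0.01 and Slc25a53 0.04. Of these, Mtch2, Slc25a27 and Timm9 had passed the test.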
